A study of Bos taurus with 10 samples.

Results

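The flavin monooxygenase (FMO) family was followed in the liver of lactating dairy cows fed conjugated linoleic acid (CLA) or a control fat. Probe sets were taken into the family where their single gene symbol was that of an FMO gene, which gave 7 of the 24016 probe sets tested, namely 1 for FMO1, 1 for FMO2 and 5 for FMO5. Of the 4 genes named for the family, FMO4 is not analysed here, because 0 probe sets carried it as their single symbol. The family was chosen by a measured value, the CLA minus control difference of the brightest FMO5 probe set, so all differences between the groups are given for its members as a description, without a test.

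The animals were female Holstein cows in week 5 of lactation, 40 in all, first-calf and older cows together. Both groups ate the same partial mixed ration and, between week 3 before and week 14 after calving, a daily 630 g (dry matter) of a supplemental concentrate with 27.3% of a rumen-protected fat. The 20 control cows received a control fat in it and the 20 CLA cows a fat with CLA, a group name for linoleic acid isomers whose double bonds are conjugated. Each pool held liver biopsy RNA from 4 cows, and 5 control pools and 5 CLA pools were hybridized to 1 Affymetrix bovine array each, so that a value reflects the combined RNA of 4 cows and the spread is that between pools. Values are log2 signals, on which a difference of 1 is a doubling.

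Flavin monooxygenases are membrane enzymes of the endoplasmic reticulum that use NADPH, oxygen and a bound FAD to oxygenate nitrogen and sulfur atoms of drugs, plant compounds and diet-derived amines. FMO1 has a broad range of such substrates and also turns hypotaurine into taurine, and FMO2 is best known as the lung form. FMO5 is a liver and intestinal form with little activity on the classical substrates, which carries out Baeyer-Villiger oxidation of ketones. In RefSeq's genes for assembly ARS-UCD2.0, FMO2, FMO1 and FMO4 were direct neighbours in this order, while FMO5 lay on another chromosome next to CHD1L.

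The arrays were alike in scale. Array medians lay between 5.79 and 5.85 and pairwise correlations across probe sets between 0.988 and 0.996, with CLA pool 2 (0.990 on average) and control pool 4 (0.990) farthest from the rest. The tissue label was set beside its markers: albumin, ALB, had a mean log2 signal of 14.9 in both groups, above that of nearly all probe sets. All 10 hepatocyte genes listed had a probe set, which depends on the array and says nothing about the tissue. Fitted over all probe sets, 0% of 24016 passed limma at a Benjamini-Hochberg adjusted p under 0.05, with 2135 at an unadjusted p under 0.05 (2202 in an unmoderated test), so 0 of the 7 FMO probe sets passed.

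FMO5 signal was higher in every CLA pool than in any control pool at its brightest probe set, and at none of its 4 others. At that probe set, Bt.17110.1.A1_at, control pools 1 to 5 had log2 signals of 11.55, 11.71, 11.80, 11.64 and 11.54. The CLA pools 1 to 5 had 11.88, 12.05, 11.97, 11.92 and 11.96. The groups did not overlap, and the gap between control pool 3 and CLA pool 1, the nearest values, was 0.080. The means were 11.65 ± 0.11 (SD, n = 5) in control and 11.96 ± 0.063 (SD, n = 5) in CLA, a difference of 0.31 ± 0.071 SE, or 1.24-fold. Over all probe sets, the pools did not overlap in either direction for 1.97%, and all CLA pools lay above the control pools for 1.18%. The arrays read whole biopsies, in which fewer cells of a type and less RNA per cell cannot be told apart. In the FMO family the count without overlap was 1 of 7, and nothing is read from it, since that value led to the choice of the family.

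**Figure D1:**
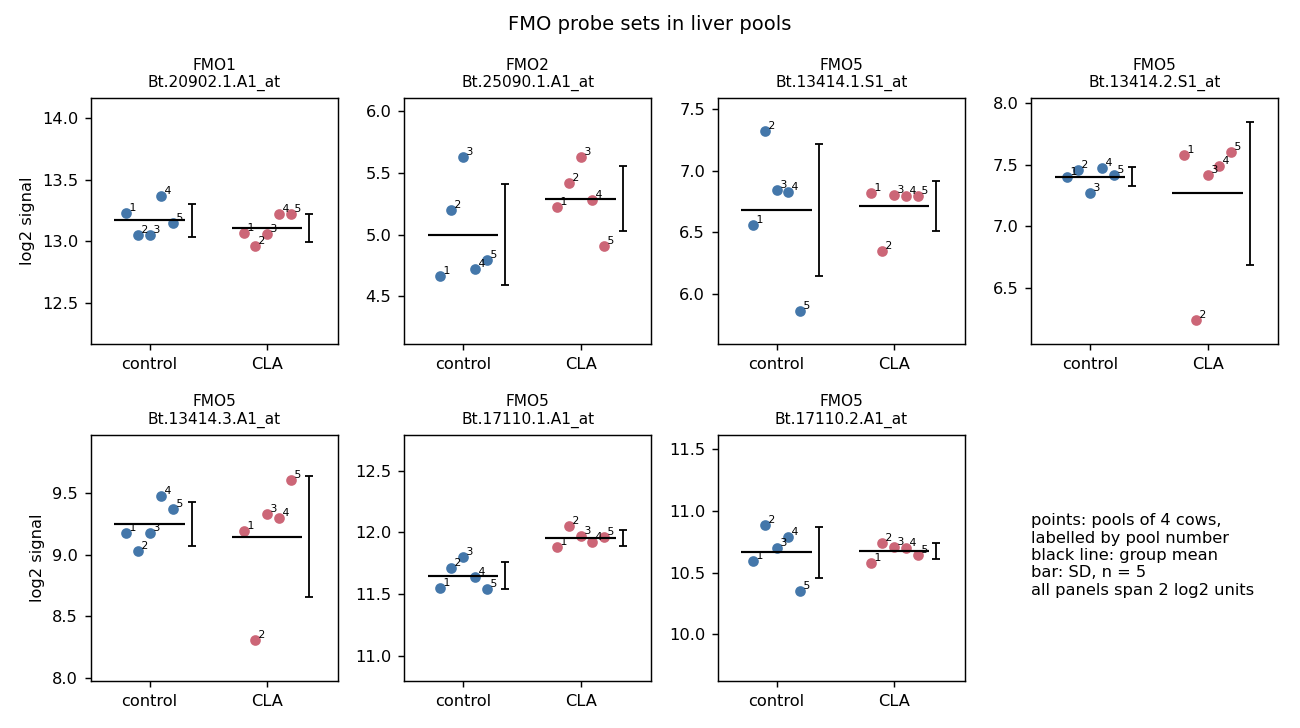
Log2 signal (vertical axis) of the 7 FMO probe sets in the 5 control and 5 CLA pools, with the pool number beside each point, the group mean as a line and the SD (n = 5) as a bar. The groups are apart at Bt.17110.1.A1_at only, and CLA pool 2 lies far below the other CLA pools at Bt.13414.2.S1_at and Bt.13414.3.A1_at.

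The second probe set of the same name group, Bt.17110.2.A1_at, did not show this difference. Its control pools 1 to 5 had 10.59, 10.89, 10.70, 10.79 and 10.35, and its CLA pools 10.58, 10.74, 10.71, 10.70 and 10.64. All CLA values lay inside the control range, and the difference was 0.010 ± 0.096 SE, lying on the other side of 0 after quantile (-0.027) and cyclic loess normalization (-0.026). Within each pool, Bt.17110.1.A1_at minus Bt.17110.2.A1_at was 0.82 to 1.19 in control and 1.22 to 1.32 in CLA. This measure contains the probe set that led to the choice of the family, so it restates that difference and nothing is read from it.

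The remaining 3 FMO5 probe sets, whose names start with Bt.13414, differed little between the group means and varied widely between pools. At Bt.13414.2.S1_at the control pools had 7.40, 7.46, 7.27, 7.47 and 7.42, a spread of 0.080 (SD, n = 5). CLA pools 1, 3, 4 and 5 had 7.58, 7.42, 7.49 and 7.60, while CLA pool 2 had 6.24. Relative to the mean of the other CLA pools, that pool stood at -1.28. With it the group difference was -0.14 ± 0.22 SE. Without CLA pool 2 the difference was 0.12, in the opposite direction.

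Bt.13414.3.A1_at had the same low pool. Its control pools had 9.18, 9.03, 9.18, 9.48 and 9.37, and CLA pools 1, 3, 4 and 5 had 9.19, 9.33, 9.30 and 9.61, against 8.31 in CLA pool 2. The groups overlapped, with a difference of -0.10 ± 0.20 SE, and 0.11 without it. In the same RNA, CLA pool 2 had the highest of all 10 values at Bt.17110.1.A1_at (12.05). Bt.17110.1.A1_at minus Bt.13414.2.S1_at was accordingly 5.81 in CLA pool 2 and 4.12 to 4.55 in the other 9 pools.

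At Bt.13414.1.S1_at the extremes were other pools. The control pools had 6.56, 7.32, 6.84, 6.83 and 5.86, with pool 2 highest and pool 5 lowest of all, and the CLA pools had 6.82, 6.35, 6.80, 6.79 and 6.79. The CLA values lay inside the control range, with a difference of 0.028 ± 0.21 SE that moved to 0.19 without control pool 2 and to -0.18 without control pool 5. Within groups the SD of the 3 Bt.13414 probe sets was 0.40, 0.41 and 0.37, above that of 96.2%, 96.5% and 95.1% of all probe sets. CLA pool 2 carried this at Bt.13414.2.S1_at and Bt.13414.3.A1_at, where the SD without it was 0.082 and 0.18, above that of 9.52% and 68.2% of probe sets. At Bt.13414.1.S1_at the SD was 0.26 without control pool 5. That of Bt.17110.1.A1_at was 0.090, above 10.1% of them, and as this probe set led to the choice of the family, nothing is read from its SD. The mean over the 5 FMO5 probe sets was 9.13 ± 0.15 (SD, n = 5) in control and 9.15 ± 0.23 in CLA, a difference of 0.022 ± 0.12 SE. It was 0.12 without CLA pool 2 (8.74) and -0.034 without control pool 5.

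**Figure D2:**
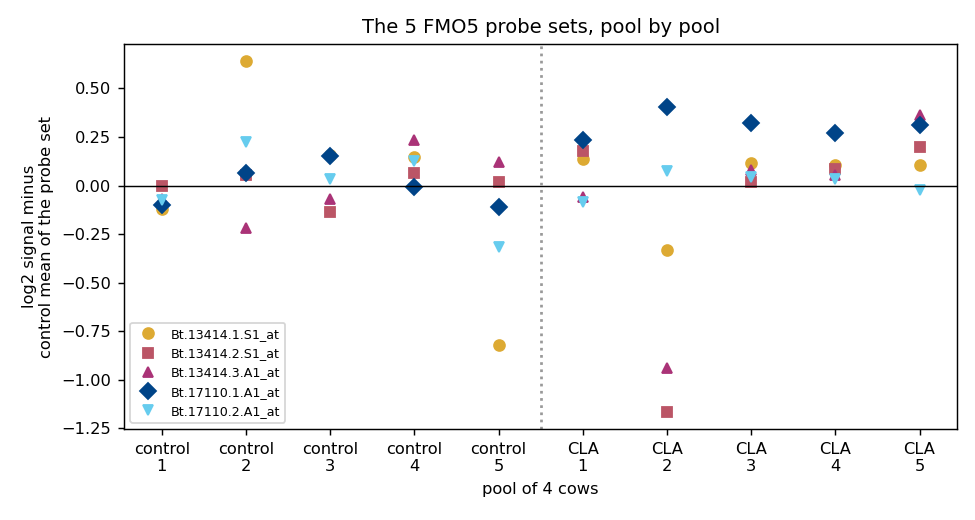
Log2 signal of each of the 5 FMO5 probe sets minus its own control mean (vertical axis), for each pool (horizontal axis). Bt.17110.1.A1_at lies above 0 in all 5 CLA pools, whereas in CLA pool 2 Bt.13414.2.S1_at and Bt.13414.3.A1_at lie near -1 and in control pool 5 Bt.13414.1.S1_at lies lowest.

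FMO1, the broad-substrate form, was read by Bt.20902.1.A1_at and hardly differed between the groups. Its control pools had log2 signals of 13.23, 13.05, 13.05, 13.37 and 13.15, and its CLA pools 13.07, 12.96, 13.06, 13.22 and 13.22. The groups overlapped over most of their range, with control pool 4 highest and CLA pool 2 lowest. The difference was -0.064 ± 0.084 SE (0.957-fold). It was 0.022 without those 2 arrays and -0.014 without control pool 4.

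FMO2, the lung form, was read by Bt.25090.1.A1_at, at a mean signal above that of 40.9% of probe sets. Control pools had 4.66, 5.20, 5.63, 4.72 and 4.79, and CLA pools 5.22, 5.42, 5.63, 5.28 and 4.91. Control pools 1, 4 and 5 lay below every CLA pool, while control pool 3 equalled the highest CLA pool, so the groups overlapped. The means were 5.00 ± 0.41 (SD, n = 5) and 5.29 ± 0.27 (SD, n = 5), and the difference of 0.29 ± 0.19 SE (1.22-fold) was 0.45 without control pool 3. On the log2 scale it was close in size to that of the brightest FMO5 probe set, with an SE of 0.19 against 0.071. Of the genes next to the family, CHD1L, beside FMO5, differed by 0.028 ± 0.087 SE (-0.0035 without control pool 2), and PRRC2C, beside FMO4, by 0.030 ± 0.17 SE (-0.14 without control pool 4).

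**Figure D3:**
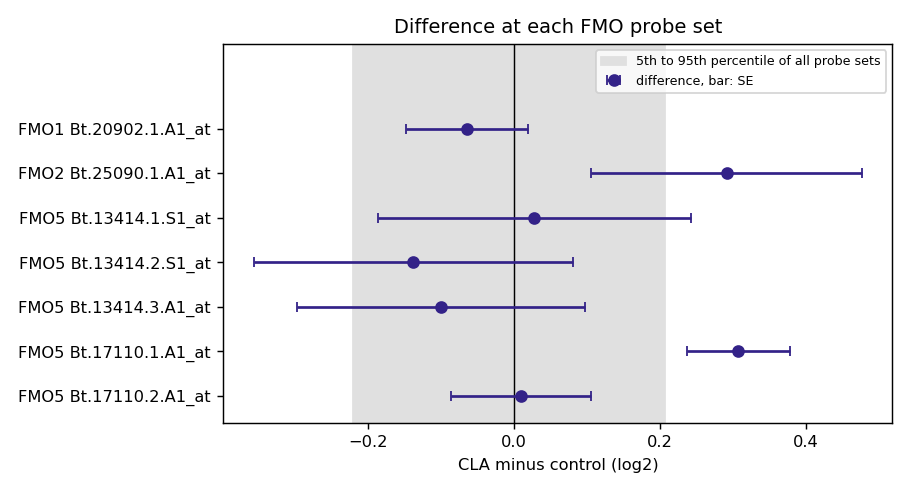
CLA minus control difference (horizontal axis, log2) with its SE for the 7 FMO probe sets, over a grey band from the 5th to the 95th percentile of all probe sets (-0.22 to 0.21). FMO2 at 0.29 and the FMO5 probe set at 0.31 lie to the right of the band, and the SE bar of FMO2 reaches into it.

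Whether FMO genes varied together from pool to pool was asked after removal of the group means, a measure that does not use the difference between groups. In all 16 relations were computed over the 10 pools, 3 between genes at their brightest probe sets, 10 among FMO5 probe sets and 3 with array spread, the SD of all values on an array. With exact two-sided permutation of pools within groups, 0 of them had a Benjamini-Hochberg adjusted p under 0.05 (the adjusted p of Pearson's r ran from 0.160 to 0.559) and 5 had an unadjusted p under 0.05.

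FMO1 and FMO2, neighbours in the genome, had a negative correlation and FMO2 and FMO5 a positive one, neither past the adjusted test. For FMO1 and FMO2, Pearson's r was -0.722 (exact permutation p = 0.0339, adjusted 0.160) and Spearman's rho -0.756 (exact permutation p = 0.0253, adjusted 0.180). Leaving out control pool 4 and CLA pool 4, the farthest in FMO1 from the median of all deviations, gave r = -0.797. CLA pool 5 was tied with CLA pool 4 (0.114 each), so the choice between them was arbitrary, and CLA pool 2 lay farther from its group mean (-0.146). FMO2 and FMO5 had r = 0.76 (exact permutation p = 0.0324, adjusted 0.160) and rho = 0.673 (exact permutation p = 0.0656, adjusted 0.180), and r = 0.585 without control pool 3 and CLA pool 3. FMO1 and FMO5 had r = -0.519 (exact permutation p = 0.172, adjusted 0.250) and rho = -0.616 (exact permutation p = 0.0792, adjusted 0.181). With the mean of the 5 FMO5 probe sets in place of the brightest, r with FMO2 was -0.0040 and r with FMO1 0.429.

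Array spread had r = -0.48 with FMO1, 0.545 with FMO2 and 0.591 with FMO5 (exact permutation p = 0.189, 0.121 and 0.0835, adjusted 0.252, 0.201 and 0.191). The matching rho values were -0.640, 0.527 and 0.636 (exact permutation p = 0.0675, 0.145 and 0.0601, adjusted 0.180, 0.274 and 0.180). Without control pool 5 and CLA pool 5, r was -0.664, 0.347 and 0.582. These pools were the farthest in spread from the median of all deviations from group means. The largest spread itself was that of CLA pool 2 (2.43, against 2.38 in CLA pool 5), which stayed in. After quantile normalization, which gives all arrays the same spread, r was -0.753 between FMO1 and FMO2 and 0.703 between FMO2 and FMO5.

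**Figure D4:**
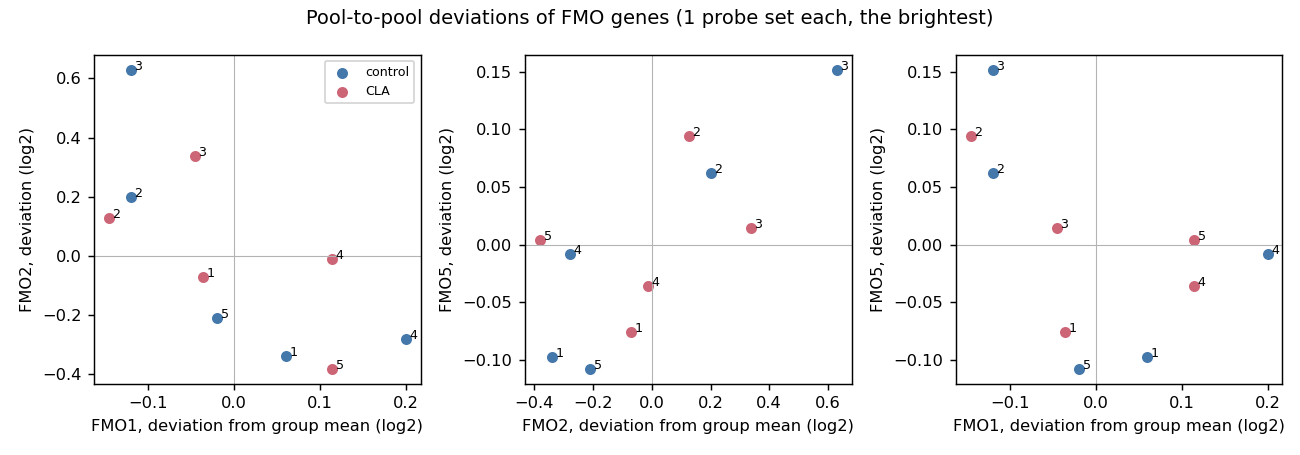
Deviation of each pool from its group mean (log2) for FMO1, FMO2 and FMO5 against each other, 1 probe set per gene, with the pool number beside each point. FMO2 is lower in pools where FMO1 is higher (r = -0.722) and higher where FMO5 is higher (r = 0.76), and control pool 3 is at the far end in FMO2; neither relation passed the adjusted test.

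Among the 5 FMO5 probe sets, Bt.13414.2.S1_at and Bt.13414.3.A1_at had the highest r, 0.902 (rho 0.742; exact permutation p = 0.0499 and 0.0281, adjusted 0.160 and 0.180). The r was 0.286 without CLA pool 2 and 0.041 without CLA pools 2 and 5. Bt.13414.1.S1_at followed Bt.17110.2.A1_at with r = 0.814 (rho 0.579; exact permutation p = 0.0440 and 0.154, adjusted 0.160 and 0.274), with r = 0.469 without control pool 5 and -0.040 without control pools 2 and 5. The 2 Bt.17110 probe sets had r = 0.657 (rho 0.754; exact permutation p = 0.110 and 0.0373, adjusted 0.201 and 0.180), and r = 0.869 without control pools 3 and 5. Bt.17110.1.A1_at went against Bt.13414.2.S1_at, with r = -0.485 (rho -0.309; exact permutation p = 0.0286 and 0.266, adjusted 0.160 and 0.386) and r = -0.577 without CLA pools 2 and 5. The other 6 pairs had r between -0.433 and 0.412. Among these, Bt.13414.1.S1_at with Bt.13414.2.S1_at went from 0.355 to 0.848 and with Bt.13414.3.A1_at from 0.137 to 0.848 without control pools 2 and 5, and without CLA pool 2 the same pairs had r = 0.054 and -0.423.

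The genes whose pool-to-pool pattern was most like that of the brightest FMO5 probe set, ranked by r among 9152 genes over 10 pools with group means removed, were METTL13 (0.965), BCAR3 (0.923), USP28 (0.902), AP1G2 (0.882) and GLIS2 (0.878). They share the arrays with FMO5, and the highest of so many correlations over 10 pools are a description. METTL13 is a methyltransferase of a translation elongation factor, BCAR3 an adaptor of integrin signalling, USP28 a deubiquitinase, AP1G2 an adaptor subunit of vesicle transport and GLIS2 a zinc finger protein. The CLA and control pools overlapped in all 5, with differences between -0.012 and 0.084, of which those of AP1G2 (0.043 without control pool 3) and GLIS2 (-0.013 without control pool 1) changed sign with 1 pool left out.

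Around the FMO reaction, 6 lists of genes were described: those that supply NADPH, take up riboflavin and make FAD, carry electrons or act beside FMO in microsomes, catalyse other flavin-dependent oxidations, make or use taurine, or have been linked to FMO transcription. Of 55 genes listed 38 were measured, each at its brightest probe set. Of these 18 were higher and 20 lower in CLA, 0 passed limma with Benjamini-Hochberg adjustment over all probe sets, and 0 had pools that did not overlap, against 2.17% of all 9155 genes. Over all genes 46.0% were higher, with a median difference of -0.010.

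For NADPH supply, 3 of 7 genes were higher and 4 lower (median -0.020, and 0.011 after subtraction of array medians). NNT, the mitochondrial transhydrogenase, had the largest positive difference, 0.30 ± 0.11 SE, with log2 signals of 10.50 to 10.91 in control and 10.69 to 11.13 in CLA, and a second probe set at -0.0020. ME1, the cytosolic malic enzyme, had the largest negative difference, -0.098 ± 0.088 SE, and ran from -0.15 without control pool 2 to -0.051 without control pool 4. For riboflavin and FAD, 1 of 4 genes was higher and 3 lower (median -0.125; -0.094 to -0.112 under the 3 other scalings). The riboflavin transporter SLC52A2 differed by -0.30 ± 0.089 SE, from 8.85 ± 0.16 (SD, n = 5) in control to 8.55 ± 0.11 in CLA, with its other probe sets at -0.29 and -0.11. RFK, riboflavin kinase, which makes FMN on the way to FAD, differed by 0.16 ± 0.092 SE.

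In the microsomal list 4 of 6 genes were higher (median 0.0060, negative after quantile and cyclic loess normalization). EPHX1, microsomal epoxide hydrolase, differed by 0.040 ± 0.11 SE, in the opposite direction without CLA pool 2 (-0.044), without control pool 1 (-0.027) and after cyclic loess normalization (-0.0019), and by 0.094 without control pool 4. CYB5A, cytochrome b5, differed by -0.054 ± 0.11 SE, by 0.031 without CLA pool 5 and by -0.12 without CLA pool 1. Among the other flavin-dependent enzymes 4 of 10 were higher (median -0.014, and 0.017 after subtraction of array medians). KMO, kynurenine 3-monooxygenase, differed by 0.18 ± 0.32 SE. Its CLA pools had log2 signals of 9.52, 7.69, 9.34, 8.09 and 9.39, with pools 2 and 4 below and the other 3 above the whole control range of 8.35 to 8.89, and the difference was 0.46 without CLA pool 2, 0.36 without CLA pool 4 and 0.0035 without CLA pool 1. COQ6, a monooxygenase of ubiquinone synthesis, differed by -0.21 ± 0.14 SE, and by -0.35 without control pool 1.

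Of the taurine list 2 of 6 genes were measured. CDO1, cysteine dioxygenase, the first step towards hypotaurine, differed by 0.22 ± 0.11 SE, while its dimmer probe set was at -0.086. The taurine transporter SLC6A6 differed by -0.052 ± 0.083 SE (-0.086 without CLA pool 4 and -0.0065 without control pool 4), at a signal among the dimmest 30% of probe sets. Of the transcription factors 5 of 9 were higher (median 0.030; 0.033 to 0.061 under the 3 other scalings). YY1 differed by 0.17 ± 0.065 SE and ARNT, the partner of the dioxin receptor, by -0.15 ± 0.071 SE. HNF4A, a factor of hepatocyte identity, differed by 0.056 ± 0.19 SE, from -0.099 without control pool 4 to 0.23 without control pool 5.

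**Figure D5:**
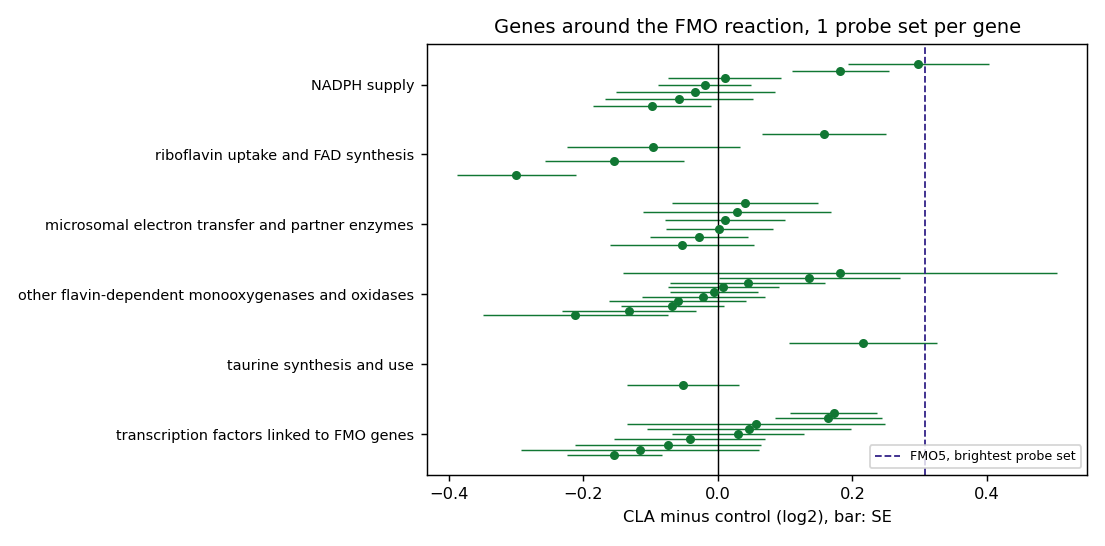
CLA minus control difference (horizontal axis, log2) with its SE for the 38 measured genes of the 6 lists, 1 point per gene, beside the brightest FMO5 probe set (dashed line, 0.31). NNT at 0.30 lies nearest to that line and SLC52A2 at -0.30 farthest to the left.

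Markers of liver cell types were set beside these values. Of the 10 hepatocyte markers 9 were higher in CLA (median 0.051; 6 of 10 after cyclic loess normalization), and the list's mean level relative to the control mean was -0.42 to 0.16 in control and -0.14 to 0.30 in CLA. All 6 T and NK lymphocyte markers were lower (median -0.22), at -0.17 to 0.24 in control and -0.38 to -0.14 in CLA. In the hepatocyte list HP varied most, with an SD of 2.13 in control and 1.59 in CLA. It therefore weighed most in the spread of that list's mean level. Of the other lists, 4 of 4 macrophage, 5 of 5 erythroid and 5 of 6 skeletal muscle markers were lower, 4 of 6 stellate cell markers were higher, and endothelial and cholangiocyte markers were split evenly. Several of these markers had signals among the dimmest 30% of probe sets, which limits what their direction can show. They were HBA, ALAS2 and SLC4A1 (erythroid), ACTA1, MYL2 and TNNT1 (skeletal muscle), and VWF and KDR (endothelial). After quantile normalization 4 of 5 erythroid markers were lower and 3 of 6 stellate cell markers higher, and after subtraction of array medians 3 of 4 macrophage markers were lower. Endothelial markers were split evenly also after that subtraction, with 4 of 6 lower after quantile and cyclic loess normalization. Pools did not overlap for 3 of these markers, 1 of 6 T and NK lymphocyte, 1 of 5 erythroid and 1 of 10 hepatocyte markers. The T cell kinase ZAP70 differed by -0.44 ± 0.11 SE and the haemoglobin gene HBA by -0.24 ± 0.076 SE. The iron carrier TF differed by 0.064 ± 0.055 SE (0.015 after quantile normalization). Over all 9155 genes the pools did not overlap for 2.17%, and the share among markers was not tested against it. In each of the cell type lists the mean levels of the groups overlapped. The part of cell composition in the FMO values was not tested.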

How the data were processed

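Each probe set had 1 deposited log2 value per array, made by the authors with Affymetrix Expression Console 1.1 and RMA, per the submitters' processing notes; order, settings and background calls are not given in the sources used here. RMA equalizes arrays, so shifts shared by most transcripts are removed. The values were used as deposited. Of 24128 probe sets, 112 manufacturer controls were left out. Names came from the platform annotation: 13292 of the tested probe sets had 1 gene symbol, 86 several and 10638 none.

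CLA minus control differences come from limma 3.58.1 (lmFit, then eBayes; R 4.3.3) on all 10 arrays, without covariates, with Benjamini-Hochberg adjustment over 24016 probe sets. The code was tested on simulated data with known changes. Correlations used residuals from group means and all 14400 rearrangements within groups (Python 3.11.15). A gene is given by its brightest probe set unless stated. Named were all FMO probe sets, the largest difference in each direction per list, list genes, cell type markers included, whose pools did not overlap, and the 5 genes most like FMO5. CHD1L and PRRC2C were named for their position and HNF4A and the cell type lists as background. The members, lists and the left-out pair of arrays were chosen with earlier results of these data known. Precision is limited by the number of arrays, 5 per group.

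Alternatives were each pool left out, the pool number as a block, quantile, median and cyclic loess scaling, array weights, a filter on the dimmest 30%, trend and robust eBayes, an unmoderated test, and both arrays farthest from the rest left out. Leaving out single pools for the correlations, the SD and the mean over FMO5 probe sets, and all alternatives for genes outside the family, were added after seeing the data.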

Additional observations from a re-analysis of the deposited data

Results flagged for a closer look

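In a group of 5 pools, a pool was singled out where its gap to the nearest other pool was a large share of the group's range (Dixon's test at 95%). Of 60 groups checked, 4 held such a pool, and chance gives about 1 in 20. CLA pool 2 had a log2 signal of 6.35 at the FMO5 probe set Bt.13414.1.S1_at, against 6.79 to 6.82 in the other CLA pools. CLA pool 2 also had 6.24 at the FMO5 probe set Bt.13414.2.S1_at, against 7.42 to 7.60. It was the pool that stood apart upwards for EPHX1, at 12.84 against 12.36 to 12.49. Control pool 1 had 6.50 for COQ6, against 7.07 to 7.29 in the other control pools.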

How the results depend on the processing

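Over 16 alternatives the difference at the brightest FMO5 probe set ran from 0.265 to 0.346; as its pools do not overlap, leaving out pools could not turn its sign or end the separation, and the block leaves it as it is. That of FMO2 ran from 0.19 to 0.45. FMO1 changed sign in 1 alternative of 16, and the other FMO5 probe sets in 2 (Bt.13414.1.S1_at), 3 (Bt.13414.2.S1_at), 3 (Bt.13414.3.A1_at) and 6 (Bt.17110.2.A1_at). With array weights Bt.13414.2.S1_at stood at 0.035 and Bt.13414.3.A1_at at 0.031. The count of probe sets past the adjusted limma test was 0 in every alternative except with CLA pool 2 and control pool 4 both left out, where it was 1, CGN1 (conglutinin; difference 0.97, adjusted p = 0.0302), no FMO gene. Pool numbers gave no sign of a pairing: deviations of equally numbered pools correlated between -0.086 and 0.092, and 2 of 5 control pools matched best with their own number. Such a check cannot exclude a pairing. With the replicate block the FMO5 difference was 0.308 as before, 0 probe sets passed and 2168 had an unadjusted p under 0.05. No correlation passed in any of 185 values under alternatives (lowest adjusted p = 0.102). For the 23 other named genes, 26 of 368 values changed sign. The array medians differ between groups, and scaling moved the median difference of all probe sets from -0.018 to 0.013 at most.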
